A study of Mus musculus with 10 samples.

Results

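The 10 genes by which nonclassical monocytes of the mouse are recognised are described here across bone marrow cells with and without the receptor LAIR1. The 10 genes are Cx3cr1, Treml4, Ace, Spn, Cd300e, Adgre4, Ear2, Eno3, Fabp4 and Gngt2. They were listed as known markers of the subset, with earlier results of these data known and with no measured value in the rule, and all 10 were found by Ensembl identifier among 52636 genes in the count table. All 10 passed the filter on low counts, as did 13469 genes in all. The study sequenced bulk RNA of nonclassical monocytes sorted from bone marrow of mice carrying LAIR1 (genotype LAIR1+/+, here WT, 5 libraries) and of mice lacking it (genotype LAIR1-/-, here LAIR1KO, 5 libraries). No mouse was treated, and each library came from 5000 to 10000 cells at a stated sort purity of 98%. The labels give no strain, age, type of LAIR1 deletion or number of animals per library, so the p-values below measure the spread between these libraries.

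Nonclassical monocytes are the Ly6C-low monocytes that patrol the inside of small blood vessels and clear debris there. In mice they arise largely from classical Ly6C-high monocytes, and the nuclear receptor Nr4a1 is needed for their formation. LAIR1, found on most leukocytes, binds collagens and proteins with collagen-like domains and restrains the cell that carries it. The marker genes have different jobs: Cx3cr1, Treml4, Cd300e, Adgre4 and Spn encode surface receptors or glycoproteins, Ace a cell surface peptidase, Gngt2 a G protein subunit, Ear2 a secreted ribonuclease, Eno3 a glycolytic enzyme and Fabp4 a fatty acid carrier.

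Libraries held 12106209 to 15356924 counts in total, and the 10 markers had 1203 to 48783 counts in every library. Lair1 itself had 4230 to 5579 counts in WT and 0 to 10 in LAIR1KO, so each library matched its genotype label. LAIR1KO replicates 4 and 5 had the highest summed levels of 11 myeloid progenitor genes (5505 and 6881 CPM, counts scaled to library size) and of 12 mitosis genes (1011 and 1052 CPM). The markers' differences are therefore also given without them. Both also had the lowest summed levels of the 10 markers in LAIR1KO (8165 and 6884 CPM). Leaving them out therefore moves most differences toward 0 in part through that choice, and those values are descriptions. The cell type label was checked against the markers and against genes of other cells. Of 7 genes of T and NK cells, 6 had a mean under 1 CPM. The other, Nkg7, a granule gene, rose from 11.1 ± 5.57 to 28.2 ± 10.8 CPM (log2 fold change 1.35, edgeR adjusted p = 0.0206), a call lost under 6 of 24 alternatives, among them without WT replicate 1 or 3 and without LAIR1KO replicate 5. The B cell list summed to 914 to 1401 CPM, most of it Ighm (mean 1138 CPM in WT, 1106 in LAIR1KO). The neutrophil list summed to 889 to 2399 CPM. Some other cells use Ace, Fabp4 or Eno3 too. The 13 resident macrophage genes summed to 1601 to 2129 CPM in WT and 885 to 1107 CPM in LAIR1KO. Adgre1 was the largest part of that sum (mean 912 CPM in WT, 716 in LAIR1KO). The part of resident macrophage transcripts in the level of Fabp4 was not tested. The 4 adipocyte genes summed to 0 to 2.16 CPM, with Lep and Cidec at 0 in every library, and the 5 skeletal muscle genes to 0 to 0.623 CPM, with Myh4 and Mb at 0. The 5 endothelial genes summed to 12.2 to 33.2 CPM, most of it Vwf (19.3 CPM in WT), which platelets also hold.

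Measured per length of transcript, the markers stood among the most abundant genes of these cells. In WT, 5 of the 10 ranked within the first 100 genes and 9 within the first 1000 by mean TPM (transcript level, counts divided by exon length and scaled to a fixed sum within each library), where the median tested gene was at 15.2 TPM. Adgre4, an adhesion receptor of the F4/80 family, was the highest at 2194 ± 144 TPM (SD, n = 5). Treml4 followed at 1837 ± 141 TPM and Gngt2 at 1817 ± 187 TPM, and their order could not be told apart, since Treml4 was above Gngt2 in only 2 of 5 libraries. Cd300e stood at 1436 ± 165, Eno3 at 1164 ± 219, Cx3cr1 at 880 ± 63.4, Ear2 at 789 ± 89.1 and Ace at 666 ± 97.5 TPM, and the ranges of each neighbouring pair in this order overlapped. A gap followed: Spn, at 178 ± 14.0 TPM, and Fabp4, at 134 ± 32.3 TPM, lay below Ace in every WT library. The place of Fabp4 is uncertain, since the length used for it, 4489 bases in 1 block, spans its whole gene and may include introns. The order in LAIR1KO was the same apart from Ace (651 TPM) and Ear2 (650 TPM), which changed places and overlapped in range.

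**Figure D1:**
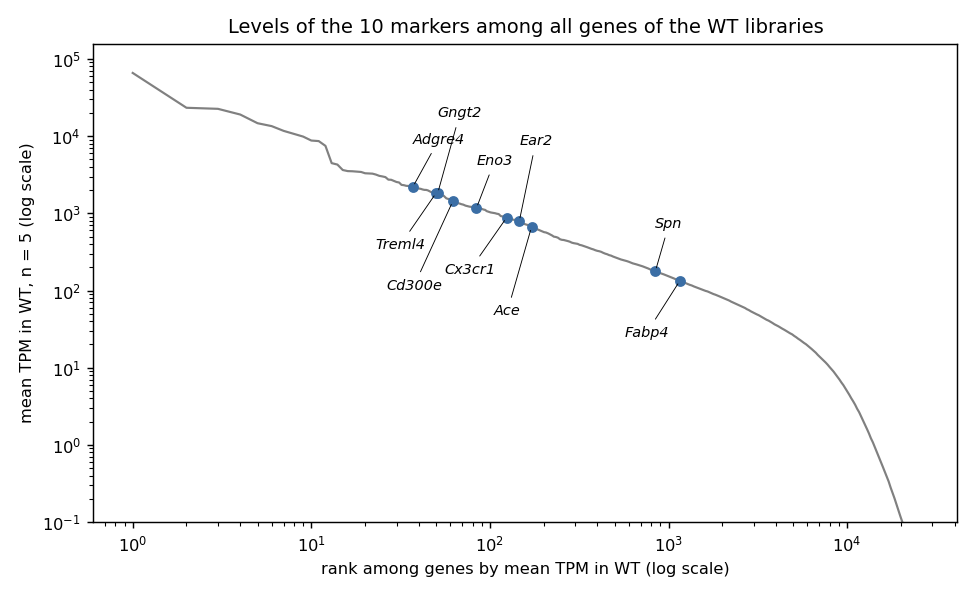
Mean TPM (vertical, log scale, n = 5 WT libraries) against rank (horizontal, log scale) for all genes with a level above 0 in WT, as a grey line, with the 10 markers as blue points. Adgre4 ranked 37 and Fabp4 ranked 1157, and the other 8 markers lay between them. The rank of Fabp4 rests on a length that spans its whole gene and may be too low in level.

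LAIR1KO was compared with WT for each marker, and all 10 had slightly lower means in LAIR1KO by CPM. None of the 10 markers passed the threshold (edgeR quasi-likelihood test, Benjamini-Hochberg adjusted p under 0.05 over all 13469 genes). Against this count of 0, 6.79% of all tested genes passed in either direction and 1.68% passed as lower. At an unadjusted p under 0.05, 3 of the 10 had lower values, where 21.8% of all tested genes met it in either direction and 8.92% as lower. No marker passed with DESeq2, which called 1516 of 13202 genes, or with limma voom, which called 894 of 13469. All 10 log2 fold changes were below 0, from -0.46 to -0.15 with a median of -0.25, beside 50.3% of all tested genes below 0 and a median of -0.00181 for them. The direction was the same with the other 3 scalings tried. On the TPM scale, which carries no such scaling, Spn, Cd300e, Adgre4 and Eno3 had slightly higher means in LAIR1KO, while the median of all tested genes moved to 0.22 and that of the markers to -0.04. The groups of libraries overlapped for all 10 markers, where 7.66% of tested genes showed no overlap in either direction and 2.06% none with LAIR1KO lower. In bulk RNA, fewer nonclassical monocytes among the sorted cells and less marker RNA per cell cannot be told apart.

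**Figure D2:**
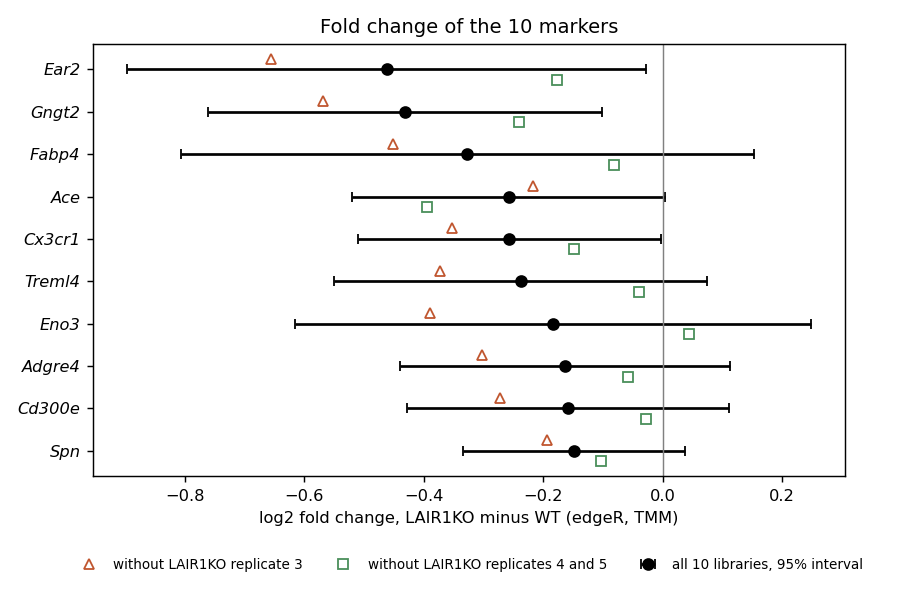
Log2 fold change of each marker (horizontal, LAIR1KO minus WT, TMM-scaled counts), with its 95% interval from the fit to all 10 libraries (black) and the values without LAIR1KO replicate 3 (open triangles) or without LAIR1KO replicates 4 and 5 (open squares). The black points run from -0.46 for Ear2 to -0.15 for Spn, all below 0 with this scaling, and 4 markers lie at a higher mean in LAIR1KO on the TPM scale.

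Cx3cr1, the receptor for the membrane-bound chemokine fractalkine, which sustains the survival of these monocytes, was lower in 4 of 5 LAIR1KO libraries than in any WT library. The gene lies on GRCm38 chromosome 9, 119901616 to 120069879, minus strand. In WT replicates 1 to 5 it stood at 1541, 1237, 1416, 1320 and 1379 CPM. In LAIR1KO replicates 1 to 5 it stood at 1067, 1216, 1450, 1120 and 915 CPM. LAIR1KO replicate 3 was above all but 1 of the WT libraries, and the groups overlapped through that library alone. The means were 1378 ± 113 and 1154 ± 198 CPM (SD, n = 5), with a log2 fold change of -0.26 ± 0.12 (SE; edgeR adjusted p = 0.224). The 95% interval ran from -0.51 to -0.0035, that is from 0.702 to 0.998 of the WT level. Its exons share 78 bases with an antisense gene, Gm33858, which had a mean of 963 counts against 17275 for Cx3cr1. The promoter of Cx3cr1 is shown as RefSeq gives it (GRCm38.p6, chr9:120068247-120068546, minus strand, 250 bases before to 50 after the RefSeq start site). This window lies inside the limits of the gene given above, which reach farther upstream. The 1 match to CCACCC, a sequence that KLF factors bind, is in capitals.
Cx3cr1: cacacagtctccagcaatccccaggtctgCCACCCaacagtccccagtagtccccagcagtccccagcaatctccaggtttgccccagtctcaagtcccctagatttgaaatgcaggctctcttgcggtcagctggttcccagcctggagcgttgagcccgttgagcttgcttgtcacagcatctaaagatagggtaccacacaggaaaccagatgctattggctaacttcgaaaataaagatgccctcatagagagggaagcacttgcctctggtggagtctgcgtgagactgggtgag

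Spn encodes CD43, the sialic acid-rich surface glycoprotein by which nonclassical monocytes are told from classical ones in flow cytometry. It had the smallest log2 fold change of the 10 markers and, at 7.90%, the lowest coefficient of variation in LAIR1KO. Its WT values were 263, 308, 297, 304 and 274 CPM and its LAIR1KO values 248, 268, 293, 255 and 241 CPM, in order of replicate. LAIR1KO replicates 1, 4 and 5 lay below every WT library and the other 2 within the WT range. The log2 fold change was -0.15 ± 0.09 (edgeR adjusted p = 0.348), and its interval from -0.33 to 0.04 leaves 0.794 to 1.03 of the WT level. Spn (chromosome 7, 127132232 to 127137823, minus strand) is shown with its promoter (chr7:127137774-127138073, minus strand) because that window held 4 matches to CCACCC or its complement GGGTGG, in capitals, the most among the markers.
Spn: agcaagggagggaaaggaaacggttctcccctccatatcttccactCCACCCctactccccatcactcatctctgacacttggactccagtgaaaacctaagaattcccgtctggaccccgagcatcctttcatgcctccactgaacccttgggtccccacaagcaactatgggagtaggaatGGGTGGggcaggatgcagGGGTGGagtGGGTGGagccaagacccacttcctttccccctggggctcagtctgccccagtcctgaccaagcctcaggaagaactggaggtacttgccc

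Ace, the angiotensin-converting enzyme, a peptidase anchored on the cell surface, followed another pattern across libraries than the other 9 markers. It stood at 1013, 1278, 1418, 1136 and 1260 CPM in WT and at 1052, 836, 902, 1235 and 1080 CPM in LAIR1KO, in order of replicate. LAIR1KO replicate 3, the highest or second highest library for 5 of the other markers, was here the second lowest of all 10, and LAIR1KO replicate 5, the lowest library for each of the other 9, was in place 6 of 10 from the top. The means were 1221 ± 153 and 1021 ± 157 CPM (n = 5), with a log2 fold change of -0.26 ± 0.12 (edgeR adjusted p = 0.238, 95% interval -0.52 to 0.0048). Without LAIR1KO replicates 4 and 5 it was -0.39, so that Ace moved away from 0 there while each of the other 9 moved toward or past it. The gene (chromosome 11, 105967945 to 105989964, plus strand) has a first start and an inner one in RefSeq, and a count per gene does not tell their transcripts apart. Both promoters are shown (chr11:105967698-105967997 and chr11:105974939-105975238, plus strand) because Ace departs from the rest. The first held none of the 5 motifs searched, and the second held CCACCC once, in capitals.
Ace, first start: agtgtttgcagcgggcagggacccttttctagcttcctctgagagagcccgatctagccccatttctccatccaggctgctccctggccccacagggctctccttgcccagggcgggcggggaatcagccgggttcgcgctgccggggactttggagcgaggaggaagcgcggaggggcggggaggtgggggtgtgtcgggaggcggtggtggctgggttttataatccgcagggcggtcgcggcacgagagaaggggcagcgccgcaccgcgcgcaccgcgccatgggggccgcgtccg
Ace, inner start: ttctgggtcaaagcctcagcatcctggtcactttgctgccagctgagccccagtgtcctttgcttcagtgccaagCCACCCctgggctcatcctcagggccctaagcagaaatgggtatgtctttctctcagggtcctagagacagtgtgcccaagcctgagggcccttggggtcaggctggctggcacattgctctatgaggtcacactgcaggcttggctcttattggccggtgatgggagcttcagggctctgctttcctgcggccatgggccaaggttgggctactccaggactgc

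Treml4, a TREM-like receptor that binds dying cells, varied little in WT and widely in LAIR1KO. It stood at 1199, 1218, 1305, 1274 and 1374 CPM in WT and at 1166, 1092, 1465, 921 and 760 CPM in LAIR1KO. LAIR1KO replicate 3 was the highest of all 10 libraries, and the other 4 LAIR1KO libraries lay below every WT library. The coefficient of variation was 5.52% in WT and 24.6% in LAIR1KO, and the log2 fold change was -0.24 ± 0.14 (edgeR adjusted p = 0.372).

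Cd300e, an activating receptor that signals through the adaptor DAP12 in human cells, showed the same picture. Its values were 882, 1039, 1123, 1040 and 1116 CPM in WT and 976, 872, 1216, 842 and 754 CPM in LAIR1KO. LAIR1KO replicate 3 was again above every WT library, 3 LAIR1KO libraries were below every WT library and 1 lay within the WT range. The means of 1040 ± 97.0 and 932 ± 178 CPM gave a log2 fold change of -0.16 ± 0.13 (edgeR adjusted p = 0.506).

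Adgre4, known as EMR4 and the most abundant of the markers by CPM as well, stood at 2826, 2791, 2598, 2450 and 2638 CPM in WT. In LAIR1KO it stood at 2373, 2072, 3234, 2282 and 1911 CPM. Replicate 3 was above all WT libraries and the other 4 LAIR1KO libraries below all of them, so the mean difference was small against a spread of 513 CPM in LAIR1KO (153 CPM in WT). The log2 fold change was -0.16 ± 0.13 (edgeR adjusted p = 0.50). Its promoter (chr17:55749734-55750033, plus strand) is shown as the only one of the markers with a match to GAGGAAGT, a sequence bound by the myeloid factor PU.1, read here on the other strand at its 3′ end. It also held the C/EBP sequence TTGCNNAA, likewise on the other strand. Both are in capitals.
Adgre4: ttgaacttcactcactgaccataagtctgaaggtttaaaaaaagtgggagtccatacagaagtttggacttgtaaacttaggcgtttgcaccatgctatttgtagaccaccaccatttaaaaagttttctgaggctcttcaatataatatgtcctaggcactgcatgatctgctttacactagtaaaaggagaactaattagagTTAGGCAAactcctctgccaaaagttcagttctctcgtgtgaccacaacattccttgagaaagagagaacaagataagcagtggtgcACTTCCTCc

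Gngt2, a G protein gamma subunit first known from cone photoreceptors, had the smallest p of the 10 markers. It stood at 1281, 1310, 1093, 1257 and 994 CPM in WT and at 930, 889, 1199, 760 and 623 CPM in LAIR1KO. All LAIR1KO libraries but replicate 3 were below all WT libraries. The means were 1187 ± 137 and 880 ± 215 CPM, a log2 fold change of -0.43 ± 0.15 that missed the threshold (edgeR adjusted p = 0.117, 95% interval -0.76 to -0.10, or 0.590 to 0.932 of the WT level). Exons of Gngt2 (chromosome 11, 95837216 to 95845734, plus strand) share 234 bases, 12.5% of their length, with the antisense gene Abi3, which was itself abundant (697 and 544 CPM), and the strand setting of the counting is not given in the sources used here.

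Ear2, a ribonuclease of the eosinophil-associated family, had the largest difference. It stood at 222, 220, 193, 184 and 167 CPM in WT and at 157, 153, 214, 104 and 87.2 CPM in LAIR1KO. LAIR1KO replicates 4 and 5 were the lowest 2 libraries, and only replicate 3 lay within the WT range. The log2 fold change was -0.46 ± 0.20 (edgeR adjusted p = 0.201, 95% interval -0.90 to -0.03), and -0.18 without LAIR1KO replicates 4 and 5. Ear genes are near copies of each other: 41.5% of the stretches of 50 bases in the Ear2 transcripts also occur in another gene, most often in Ear10 or Ear1. Those copies had few counts of their own, with 14 counts for Ear1, 11 for Ear10, 72 for Ear6 and 4 for Ear14 over all 10 libraries against 23191 for Ear2. Eosinophils also use Ear genes, and their markers were uneven. Prg2 ran from 0.542 to 3.03 CPM in WT and from 2.78 to 85.3 CPM in LAIR1KO, highest in replicate 4, and Epx from 0 to 1.04 and from 0.0673 to 22.3 CPM. Ccr3 had means of 3.50 CPM in WT and 2.04 in LAIR1KO, Siglecf of 0.718 and 1.23 and Il5ra of 0 and 0.220. All 5 were looked at after their values were seen, and their part in the level of Ear2 was not tested. The promoter of Ear2 (chr14:44102404-44102703, plus strand) held TTGCNNAA and CCACCC once each, in capitals, and is shown for the marker with the largest difference.
Ear2: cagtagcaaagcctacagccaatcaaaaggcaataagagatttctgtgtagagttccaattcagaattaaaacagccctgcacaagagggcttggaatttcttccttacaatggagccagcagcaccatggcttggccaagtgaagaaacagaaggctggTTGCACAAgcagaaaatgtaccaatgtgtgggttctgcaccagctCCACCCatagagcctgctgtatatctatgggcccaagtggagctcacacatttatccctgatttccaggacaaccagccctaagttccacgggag

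Eno3, the beta enolase of glycolysis best known from muscle, had the largest p of the 10 markers. It stood at 602, 673, 824, 872 and 551 CPM in WT and at 587, 648, 949, 509 and 409 CPM in LAIR1KO. Replicate 3 of LAIR1KO was again the highest of all libraries, and only LAIR1KO replicates 4 and 5 were below the WT range. The log2 fold change of -0.18 ± 0.20 (edgeR adjusted p = 0.650) turned to 0.045 without those 2 libraries.

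Fabp4, which carries fatty acids inside macrophages and fat cells, was the lowest marker by TPM and the most variable in WT. Its merged exons formed 1 block of 4489 bases over the whole gene, so its length may include introns. Its TPM may therefore be too low, and by mean CPM in WT (209) it stood above Ear2 (197). Its values were 239, 219, 165, 280 and 144 CPM in WT and 220, 153, 222, 136 and 104 CPM in LAIR1KO. LAIR1KO replicates 1 to 3 lay within the WT range and replicates 4 and 5 below it. The log2 fold change was -0.33 ± 0.22 (edgeR adjusted p = 0.433) and its interval ran from -0.81 to 0.15.

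**Figure D3:**
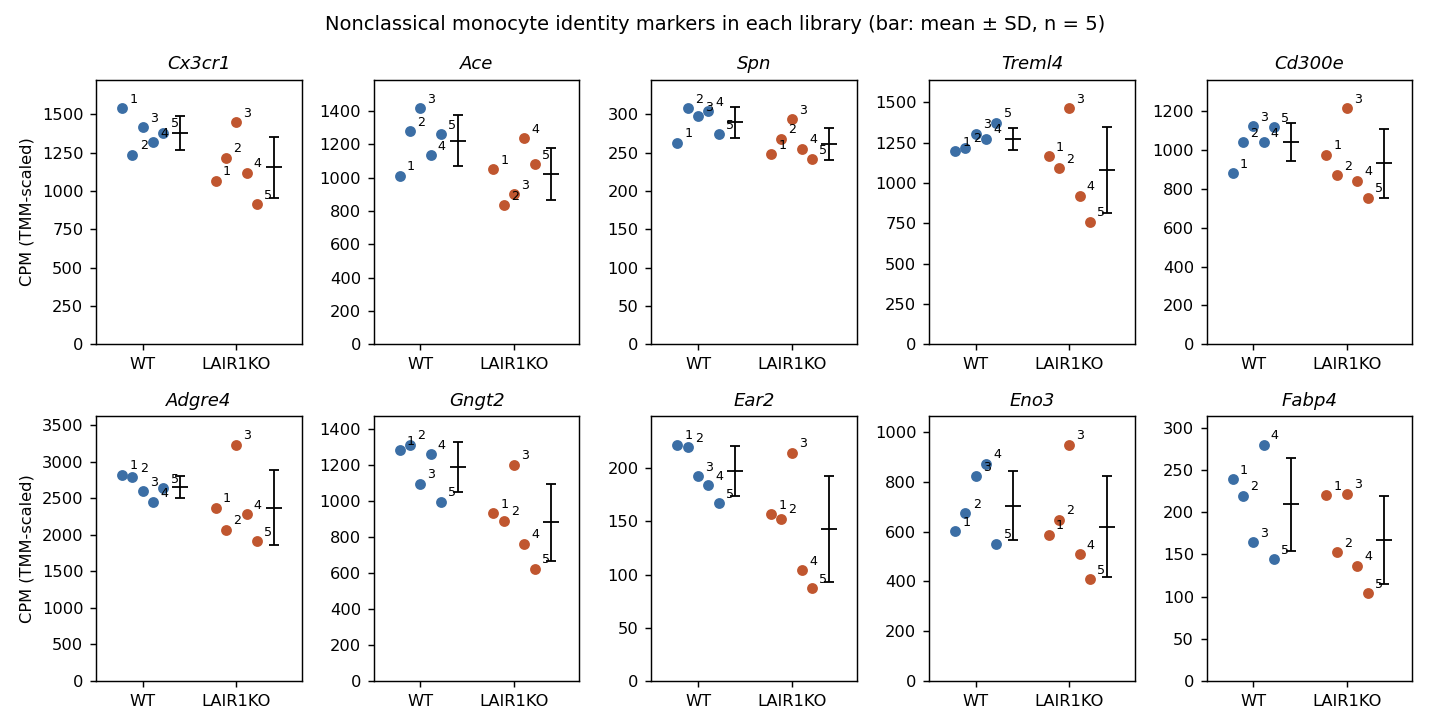
Level of each marker in each library (vertical, CPM on TMM-scaled library sizes, axis from 0). Points are libraries with their replicate number, and bars give the mean ± SD of 5. LAIR1KO replicate 3 is above every WT library for Treml4, Cd300e, Adgre4 and Eno3, and LAIR1KO replicate 5 is the lowest library for every marker but Ace.

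Apart from Ace, the markers moved together across the LAIR1KO libraries, where their spread was wider. Across WT they were mixed: 3 to 6 of the 10 lay below their WT mean in each library. The correlations below pool both genotypes and were not taken within WT alone. Over the 10 libraries, with each genotype's mean removed, the correlation of log2 CPM between pairs of markers had a median of 0.67, and 36 of 45 pairs were above 0. The highest was 0.95, between Ear2 and Gngt2. All 9 pairs below 0 held Ace, whose mean correlation with the other markers was -0.36, where that of the other 9 markers ran from 0.48 to 0.64. These values are descriptions over libraries that share depth and scaling. As shares of the markers' own sum, which no library scaling touches, all 10 markers overlapped between the groups: Adgre4 made up 26.2% ± 1.59 of it in WT and 27.4% ± 1.39 in LAIR1KO, and Gngt2 11.7% ± 1.31 and 10.1% ± 0.858 (SD, n = 5).

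WT libraries were alike in the sum of the 10 markers and LAIR1KO libraries were not. The sum was 9897 to 10431 CPM in WT. In LAIR1KO it was 11145 CPM in replicate 3, 8776 in replicate 1, 8196 in replicate 2, 8165 in replicate 4 and 6884 in replicate 5. Replicate 3 was above every WT library and the other 4 were below every one. The SD of log2 CPM was larger in LAIR1KO than in WT for 10 of 10 markers, beside 55.5% of all tested genes. Without LAIR1KO replicate 3 it was larger for 9 of 10, beside 49.8%. The median SD of the markers was 0.16 in WT and 0.32 in LAIR1KO, and that of all tested genes 0.25 and 0.28. This difference in spread was not tested.

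Within LAIR1KO the order of the libraries by marker sum was the reverse of their order by progenitor genes. The 11 progenitor genes summed to 3236 CPM in replicate 3, 3733 in replicate 1, 4002 in replicate 2, 5505 in replicate 4 and 6881 in replicate 5. The 12 mitosis genes gave the same order, from 531 CPM in replicate 3 to 1052 CPM in replicate 5. In WT the progenitor genes summed to 543 to 1429 CPM and the mitosis genes to 253 to 356 CPM, and WT replicate 2, with the most of both, had the second highest marker sum. All 5 LAIR1KO libraries exceeded every WT library in both lists, replicate 3 included. The part of progenitor and mitosis transcripts in the levels of the markers was not tested.

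**Figure D4:**
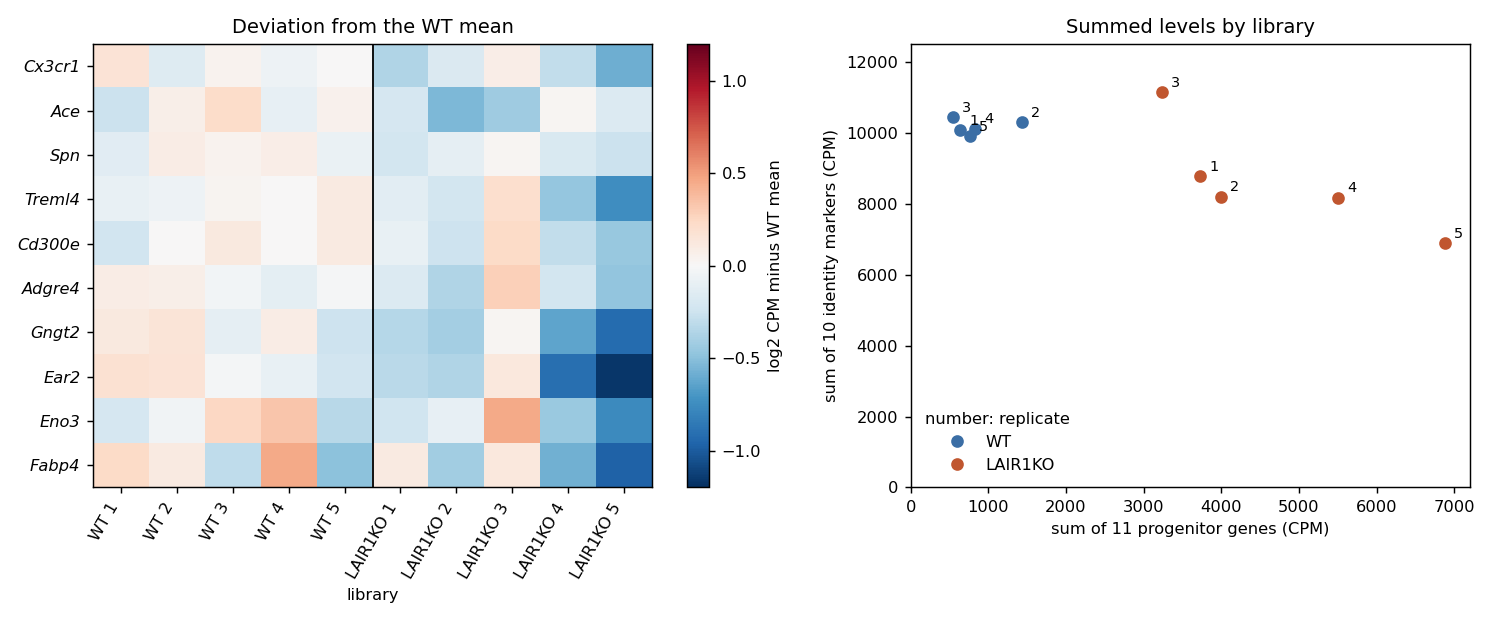
Left, log2 CPM of each marker minus its WT mean in each library (blue lower, red higher, TMM scaling). Right, sum of the 10 markers (vertical, CPM) against the sum of 11 progenitor genes (horizontal, CPM), 1 point per library with its replicate number. The WT sums lie between 9897 and 10431 CPM, and the LAIR1KO sums run from 11145 CPM in replicate 3 to 6884 CPM in replicate 5.

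LAIR1KO replicate 3 was singled out by the markers' own values, as the LAIR1KO library with the highest marker sum. Leaving it out lowers the fold changes in part through that choice, so the counts without it are descriptions. The call on the markers depended on that library. Without it 4 of the 10 passed as lower in LAIR1KO, where 8.56% of all genes tested in that fit passed in either direction and 2.79% as lower. They were Gngt2 (log2 fold change -0.57, edgeR adjusted p = 0.0170), Ear2 (-0.66, adjusted p = 0.0351), Cx3cr1 (-0.35, adjusted p = 0.0465) and Adgre4 (-0.30, adjusted p = 0.0495). The median of the 10 was then -0.36. Without LAIR1KO replicates 4 and 5 together none passed, where 376 of 14058 genes tested in that fit passed. Then 9 of 10 were below 0 and the median was -0.09. Those libraries had the lowest marker sums in LAIR1KO, so this move toward 0 follows in part from leaving them out. Beside the values given above, the log2 fold change was then -0.24 for Gngt2, -0.15 for Cx3cr1, -0.10 for Spn, -0.082 for Fabp4, -0.057 for Adgre4, -0.039 for Treml4 and -0.028 for Cd300e. Without WT replicates 1 and 4 none passed, where 338 of 14080 genes tested in that fit passed, and the median was -0.23. No label sets replicate 3 apart from the other LAIR1KO libraries.

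Other genes of nonclassical monocytes lay on the same side of 0 as the markers. Of 16 such genes, all tested, 1 fell in LAIR1KO and 15 did not pass. Of all tested genes 6.79% passed in either direction and 1.68% as lower. The median log2 fold change of the 16 was -0.30, with all 16 below 0, beside 50.3% of all tested genes. The gene that fell was Hes1, a repressor induced by Notch signalling, from 44.4 ± 13.8 to 23.8 ± 3.32 CPM (log2 fold change -0.90 ± 0.21, edgeR adjusted p = 0.0201). Its call was lost without WT replicate 3 (adjusted p = 0.0523), without LAIR1KO replicate 4 (0.0580), without LAIR1KO replicates 4 and 5 together (0.109) and with the replicate number in the fit (0.0830). Among the rest the smallest p-values belonged to the integrin chain Itgax (-0.40 ± 0.13, adjusted p = 0.0778), the transcription factor Klf2 (-0.77 ± 0.25, adjusted p = 0.0906), the peptidoglycan-binding protein Pglyrp1 (-0.50 ± 0.19, adjusted p = 0.134) and Nr4a1. Nr4a1, the receptor on which the subset depends in mice, averaged 1451 ± 105 CPM with LAIR1 and 1158 ± 258 CPM without it (log2 fold change -0.33 ± 0.13, edgeR adjusted p = 0.177). Without LAIR1KO replicate 3 it was at -0.45 (edgeR adjusted p = 0.0228), where 2.79% of genes in that fit passed as lower. Nr4a1 too was highest in that library among LAIR1KO (1541 CPM), so this call follows in part from leaving it out.

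Genes of other cells and of earlier stages were measured in the same libraries. Of 8 tested classical monocyte genes edgeR called 2 higher, with a median of 0.35 over the list. The most abundant, the chemokine receptor Ccr2, was at 648 ± 187 and 423 ± 59.4 CPM (log2 fold change -0.62, edgeR adjusted p = 0.0588). It passed as lower with DESeq2 (adjusted p = 0.0133), and in edgeR with upper-quartile scaling (0.049), with no filter (0.0271), without WT replicate 5 (0.0185) and with the GC and length trend removed (0.0305). Of 11 progenitor genes 10 were higher (median 2.10), Mpo from 518 to 3401 CPM, and all 12 mitosis genes were higher (median 1.40), Top2a from 66.1 to 182 CPM. Of 11 resident macrophage genes 8 were lower (median -1.64). The most abundant of the list, Adgre1, a relative of Adgre4 that encodes F4/80, was not among those 8. It was at 912 and 716 CPM (-0.35, edgeR adjusted p = 0.0947). It passed as lower with DESeq2 (adjusted p = 0.035) and with voom quality weights (0.040). In edgeR it passed with the GC and length trend removed (0.045) and without LAIR1KO replicate 3 (0.014). None of 11 neutrophil or 7 B cell genes passed in edgeR, with 1 of each list at an unadjusted p under 0.05 and 0 called by DESeq2 or limma voom, and Csf3r was at 414 and 399 CPM. Of 7 dendritic cell genes 2 were lower in edgeR, 3 in DESeq2 and 1 in limma voom (median -0.82), with Tcf4 at 113 and 94.7 CPM. Of 10 erythroid and platelet genes 5 were lower in edgeR, 6 passed in DESeq2 and 1 in limma voom, and their summed level ran from 90.9 to 1299 CPM in WT and from 41.2 to 125 CPM in LAIR1KO. Hbb-bs, the most abundant, lost its call under 11 of 24 alternatives. Of 6 tested genes of eosinophils, basophils and mast cells 1, Prg2, was higher in edgeR, 2 passed in DESeq2 and 0 in limma voom.

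**Figure D5:**
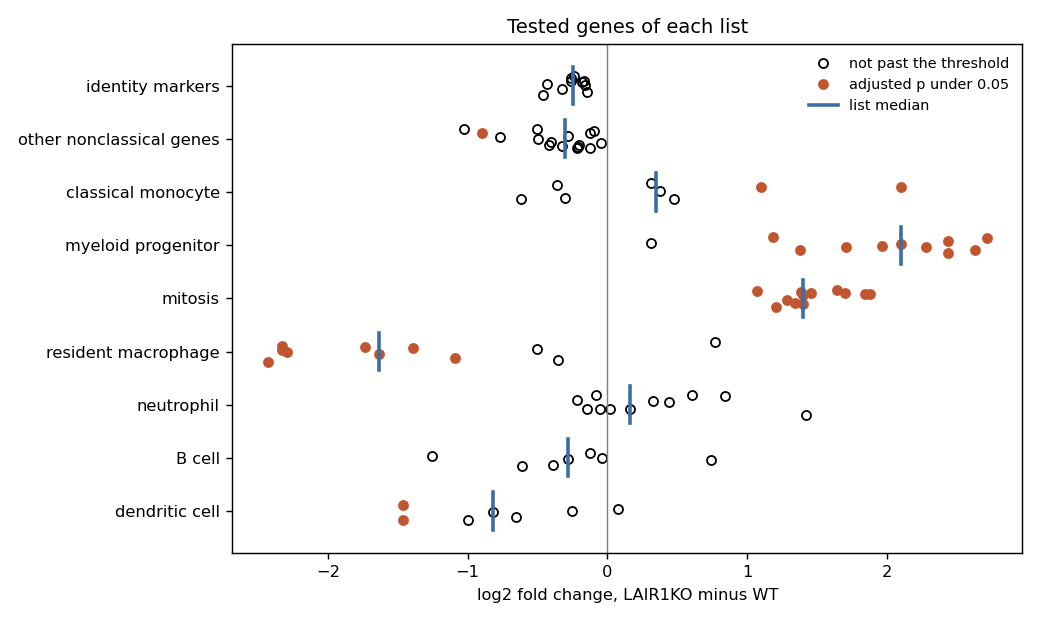
Log2 fold change (horizontal, LAIR1KO minus WT, TMM scaling) of each tested gene of 9 lists. Filled points passed an adjusted p under 0.05, open points did not, and blue bars are list medians. The 10 markers and the 16 other nonclassical genes have close medians, -0.25 and -0.30, and 1 point among them is filled. The markers run from -0.46 to -0.15 and the other 16 more widely, from -1.03 to -0.045.

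Close relatives of the markers were found at widely different levels. Eno1, the enolase of most tissues, was at 203 ± 19.2 CPM in WT, below the 704 ± 139 CPM of Eno3, and Eno2 had a mean of 0.0138 CPM. Fabp5 was at 2.34 CPM beside 209 CPM for Fabp4. The ligand of Cx3cr1, Cx3cl1, had means of 0.0620 CPM (WT) and 0.349 CPM (LAIR1KO). Other Cd300 and TREM receptors were expressed beside Cd300e and Treml4: Cd300ld, the most abundant of them over all libraries, at 1059 ± 72.1 and 911 ± 145 CPM (log2 fold change -0.22, edgeR adjusted p = 0.267), and Trem3 with means of 75.4 and 56.9 CPM (-0.41, adjusted p = 0.143). Adgre5, another adhesion receptor, was at 1092 and 942 CPM (adjusted p = 0.360 in edgeR). These levels are not per length. Among the relatives tested 1 of 19 passed in edgeR, 4 in DESeq2 and 1 in limma voom. In edgeR Gng12, a gamma subunit like Gngt2, rose from 68.3 ± 9.40 to 103 ± 20.7 CPM (log2 fold change 0.59 ± 0.14, edgeR adjusted p = 0.0273). The call of Gng12 was lost under 9 of 24 alternatives, with edgeR adjusted p up to 0.152, among them the fits without WT replicate 3, 4 or 5 and without LAIR1KO replicate 2, 4 or 5.

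The genes whose levels ran most like the markers were found by correlation of log2 CPM, over the 10 libraries, with the mean of the 10 standardized markers. The 10 nearest had correlations of 0.962 to 0.981: Hfe, an MHC-like regulator of iron uptake, was first, followed by Abi3, a regulator of the actin cytoskeleton, the lysosomal protease Ctsb, the myosin light chain Myl12b and the paired receptor Pilrb2. Prkrip1, the C-type lectin Clec4a1, Pttg1ip, the ubiquitin ligase Mkrn1 and the paired receptor Pilra completed them. Abi3 overlaps Gngt2 on the other strand, so reads of this pair may be mixed. None of the 10 passed between the groups (edgeR adjusted p from 0.0773 to 0.358), 2 passed with DESeq2 and 0 with limma voom. DESeq2 called 1516 of 13202 genes in all and limma voom 894 of 13469. Without LAIR1KO replicate 3, 8 passed, where 8.56% of all genes in that fit passed in either direction and 2.79% as lower. The 10 genes were picked for their likeness, which includes the difference between genotypes and the high place of replicate 3. Those 8 calls follow in part from that choice, and the correlations are descriptions over 10 libraries.

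Promoters were searched for 5 motifs in 9 windows of 300 bases that RefSeq gives for 8 of the 10 markers. On both strands, CCACCC occurred in 5 of the 9 windows, in Ace, Cx3cr1, Ear2, Eno3 and Spn, where 31.5% of all 32851 windows hold it. TTGCNNAA occurred in 2, in Adgre4 and Ear2, against 10.8% of all windows, and GAGGAAGT in 1, in Adgre4, against 3.20%. AAAGGTCA, the sequence that Nr4a1 binds as a monomer, and ATTTGCAT, the octamer of Pou2f2 and its relatives, occurred in none of the 9, against 1.51% and 1.74% of all windows. The 11 matches shared no base with each other. A match is a run of letters and says nothing of binding, and windows farther from the start sites were not searched.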

How the data were processed

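The authors deposited raw read counts per gene for 10 libraries, aligned with GSNAP to GRCm38.p5 per the submitters' processing notes. No source used here names the counting tool, its strand setting or its annotation. The labels' protocols describe low-input RNA libraries, and no molecular identifiers are mentioned. Gene names and exon lengths came from GENCODE M21 (52489 of 52636 identifiers matched). Genes with low counts were removed (filterByExpr, minimum count 10, minimum total 15), counts were scaled by TMM and tested with edgeR 4.0.16 in R 4.3.3 (quasi-likelihood, Benjamini-Hochberg adjusted p under 0.05 over 13469 genes). DESeq2 1.42.0 and limma 3.58.1 were alternatives. CPM uses TMM-scaled totals, and correlations and SDs use log2 CPM with an offset of 0.5. The code was tested on simulated data, where 25.4% of genes changed 1.5-fold, 74.6% changed 2-fold and 97% changed 4-fold were recovered. The largest marker difference, 27.4% lower for Ear2, was smaller than 1.5-fold, so a marker that missed the threshold may still differ. The markers, gene lists and tests were chosen with earlier results of these data known. All 10 markers were named, and genes of other lists by smallest p (nonclassical genes), highest CPM (other cells and families) or likeness. Precision is set by counting error at these depths and by the spread of 5 libraries per group. Replicates differed by more than sampling noise, with a chi-square per degree of freedom of 15.5 to 78.3.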

Additional observations from a re-analysis of the deposited data

Results flagged for a closer look

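In 4 of 66 groups of 5 libraries, 1 library lay far from the other 4, where chance alone flags about 1 group in 20. Mpo, the myeloid progenitor gene of granules, reached 915 CPM in WT replicate 2, with the next WT library at 502 CPM. Hbb-bs, a haemoglobin chain, reached 711 CPM in the same library, with the next at 170 CPM. Prss34, a protease of basophils and mast cells, reached 50.4 CPM in WT replicate 1, with the next at 12.0 CPM. Nkg7, a granule gene of NK and T cells, reached 46.9 CPM in LAIR1KO replicate 5, with the next at 26.9 CPM. None of the 10 markers had such a library in either group.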

How the results depend on the processing

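Over 24 alternatives the markers kept their direction and their side of the threshold in 235 of 240 values. The exceptions were the 4 markers that passed without LAIR1KO replicate 3 and Eno3, which turned to 0.045 without LAIR1KO replicates 4 and 5. The number of markers past the threshold was 0 to 4 when 1 library was left out in turn, and 0 under all other settings. Over all genes, 914 passed, with 535 to 1170 when 1 library was left out. The count was 1379 with library totals, 376 without LAIR1KO replicates 4 and 5, 338 without WT replicates 1 and 4, 1516 with DESeq2 and 1474 at an adjusted p under 0.1. With library totals 90.1% of calls were higher in LAIR1KO, against 75.3% with TMM, and the median of all genes moved to 0.13 and that of the markers to -0.12. Removing the trend with GC content and length gave 65.6% higher. With the replicate number as a block 600 genes and 0 markers passed. The labels do not say that the numbers mark pairs, and deviations of same-numbered libraries correlated at -0.08 to 0.05, so they were not treated as pairs. Csf3r turned to 0.081 with library totals and ran from -0.15 to 0.022 (without WT replicate 5) when 1 library was left out. Of the 16 other nonclassical genes 3 passed with DESeq2 and 4 without LAIR1KO replicate 3, against 1. Over all genes DESeq2 called 1516 of 13202, and 8.56% passed without LAIR1KO replicate 3. Ighm turned to 0.086 with library totals, 0.025 without WT replicate 4, 0.030 without LAIR1KO replicate 5, 0.078 without LAIR1KO replicates 4 and 5, 0.067 without WT replicates 1 and 4, and 0.0022 with voom quality weights. The cause was not tested. Ccr2, which missed the threshold, passed as lower with DESeq2 (adjusted p = 0.0133) and under 4 other settings at the same threshold.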
